A study of Mus musculus with 4 samples.

Results

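The genes described here were 30 named genes of cholesterol synthesis, uptake and efflux, taken by symbol from a fixed list. All 30 were found among the 30406 genes whose identifier is in all 4 feature lists. They were grouped by role into 15 synthesis enzymes (Hmgcs1, Mvk, Pmvk, Mvd, Idi1, Fdps, Fdft1, Sqle, Lss, Cyp51, Msmo1, Nsdhl, Sc5d, Dhcr7, Acat2), 5 regulators or carriers (Insig1, Srebf1, Srebf2, Scap, Stard4), 5 efflux and liver X receptor genes (Abca1, Abcg1, Nr1h3, Nr1h2, Mylip), 2 genes of storage and oxysterol synthesis (Soat1, Ch25h) and 3 uptake receptors (Cd36, Msr1, Scarb1). Their transcripts were counted in single-cell RNA sequencing of live CD45.2+ immune cells sorted from mouse brains carrying GL261, a mouse glioma line injected into the brain. There was 1 library for each of 4 groups. Untreated WT and untreated IFNaR-/- mice (KO below), which lack the type I interferon receptor, were sorted on day 20 after injection. The other 2 groups, again WT and KO, received 200 ug of anti-PD1 per mouse by intraperitoneal injection on days 7, 11, 15 and 19 and were sorted on day 25; this antibody blocks PD-1, an inhibitory receptor of T cells. Cell suspensions were pooled before the sort, and in the anti-PD1 groups CD3+ and CD3- cells were combined in equal parts, so shares of cells in those libraries were partly set by the sort. The number, age, sex and strain of the mice, and the part of the receptor gene deleted, are not given in the sources used here.

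Throughout, 4 values in a row stand for the untreated WT, untreated KO, anti-PD1 WT and anti-PD1 KO libraries, in that order. The libraries held 3705 to 9530 barcodes and 32410040 to 94732545 unique molecular identifiers (UMIs, counted transcripts), of which 2809 to 9464 cells passed the filters and 1832 to 6735 fell into 1 marker gate. In monocytes/macrophages the interferon-stimulated gene Isg15 was at 2042, 122, 1374 and 87.1 CPM (UMIs of the gene per 1000000 UMIs of the gate), low in both KO libraries, while Ifnar1 was at 134, 150.2, 85.4 and 145 CPM. The anti-PD1 WT library stood apart in its T cell receptor counts: V segments took 67.2% of these UMIs, against 1.57% to 7.90% in the other 3, although the labels give 1 kit for all. It shared 95 cell barcodes with the anti-PD1 KO library, where other library pairs shared 0 to 3. Whether the anti-PD1 WT library was prepared in another way could not be settled from the sources used here. Genotype and library preparation therefore cannot be told apart within the anti-PD1 pair, nor can anti-PD1, day of sorting and processing version between the untreated and anti-PD1 libraries. Counts of called genes are given below with and without the anti-PD1 WT library.

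Cells were assigned by raw UMIs of marker genes rather than by clustering. T cells had at least 2 UMIs of Cd3d, Cd3e and Cd3g together, monocytes/macrophages had at least 2 of Csf1r, Cd68 and Adgre1 and none of the microglia markers, and microglia had at least 2 of Tmem119, P2ry12, Sall1 and Gpr34 beside the myeloid markers. The T gate held 1338, 582, 509 and 695 cells, the monocyte/macrophage gate 1293, 695, 4335 and 2700 and the microglia gate 427, 326, 1862 and 2061. Markers that the gates did not use followed the names for T cells: Cd2, Cd5, Trac and Lck summed to 1433, 1129.9, 2013 and 1262 CPM in T cells and to at most 23.4 CPM in either myeloid gate. The 2 myeloid gates were separated clearly by further microglia markers and less by monocyte and macrophage markers. Siglech, Cx3cr1 and Sparc, which mark microglia, summed to 3439.7, 3025, 1172 and 2434 CPM in microglia and 225, 227, 74.2 and 191 CPM in monocytes/macrophages, far higher in microglia of each library and lowest in both gates of the anti-PD1 WT library. Lyz2, Ccr2, Fcgr1 and Ms4a7, which mark monocytes and macrophages, summed to 2670.2, 2961, 9418 and 5316 CPM in microglia and 6658, 4278, 12052 and 11001 CPM in monocytes/macrophages, nearest to each other, by ratio, in the anti-PD1 WT library. Astrocyte markers in microglia summed to 109, 126, 60.8 and 121 CPM, neutrophil markers in monocytes/macrophages to 178, 349, 13.9 and 42.9 CPM and in T cells to 525, 675, 0.35 and 1.72 CPM, and red cell markers to at most 0.554 CPM in any of the 3 gates. The part of these other cells in the results below was not tested.

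Cholesterol is made from acetyl-CoA through mevalonate, the farnesyl and squalene intermediates and lanosterol, and the enzymes of this route share one main control. When sterols in the endoplasmic reticulum run low, the escort protein SCAP carries the transcription factor SREBP-2, encoded by Srebf2, to the Golgi for activation; when sterols are plentiful, INSIG proteins hold both back. Surplus sterol acts in the other direction: oxysterols activate the liver X receptors LXR-alpha (Nr1h3) and LXR-beta (Nr1h2), which raise the transporters ABCA1 and ABCG1 and the ubiquitin ligase MYLIP, a brake on lipoprotein uptake. Macrophages and microglia take up lipid from dead cells and myelin and depend on efflux, whereas dividing T cells are known for switching on sterol synthesis.

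Promoter sequence was available for 23 of the 30 genes, 30 promoters in all, in RefSeq on GRCm38.p6. The 250 bases before each start were searched on both strands for 5 motifs, counted the same way in all 32851 promoters of the table. The CCAAT box (CCAAT, or ATTGG on the other strand), bound by the factor NF-Y that works beside SREBP at sterol genes, was in 18 of the 30 member promoters (60.0%) and in 33.9% of all promoters. Counted by gene, with a match in any promoter of the gene, it was in 11 of the 12 synthesis genes with a promoter, all but Acat2. It was in 1 of the 4 efflux and liver X receptor genes with a promoter, Mylip. Fdps, Fdft1, Sqle and Abcg1 had no promoter in the table. The 33.9% is a share of promoters and not of genes. A sterol regulatory element core (CACCCCAC) was in Hmgcs1 and Acat2 and in 2.58% of all promoters, and its longer form (TCACNCCAC) in Hmgcs1 and in 1.05%. The E-box CACGTG, another motif that SREBP proteins bind, was in Abca1, Dhcr7, Insig1, Sc5d and Scap and in 6.02% of all promoters. The exact liver X receptor element of the DR4 type, AGGTCA repeated after 4 bases of any kind, was in 5 promoters of the table and in no member, which says only that these letters are not in those windows. The 150 bases before the start are shown for 3 synthesis genes and 2 liver X receptor targets, all higher in monocytes/macrophages than in T cells below, to show that the motifs differ among them; capitals mark the motifs. The windows are at Hmgcs1 chr13:119690201-119690350, plus strand; Mvd chr8:122443423-122443572, minus strand; Mvk chr5:114444119-114444268, plus strand; Mylip chr13:45389592-45389741, plus strand; and Abca1 chr4:53159896-53160045, minus strand.
Hmgcs1: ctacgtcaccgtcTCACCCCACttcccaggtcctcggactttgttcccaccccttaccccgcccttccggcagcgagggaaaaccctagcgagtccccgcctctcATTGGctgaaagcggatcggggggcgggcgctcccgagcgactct
Mvd: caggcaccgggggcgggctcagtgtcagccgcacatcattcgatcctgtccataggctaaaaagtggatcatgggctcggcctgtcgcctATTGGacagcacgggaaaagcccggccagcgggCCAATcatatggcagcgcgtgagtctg
Mvk: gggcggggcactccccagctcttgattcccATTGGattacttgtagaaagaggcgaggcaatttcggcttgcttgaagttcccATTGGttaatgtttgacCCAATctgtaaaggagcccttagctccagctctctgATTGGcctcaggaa
Mylip: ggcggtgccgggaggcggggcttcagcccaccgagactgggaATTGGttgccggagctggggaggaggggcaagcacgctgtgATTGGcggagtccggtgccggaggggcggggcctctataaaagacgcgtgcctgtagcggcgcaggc
Abca1: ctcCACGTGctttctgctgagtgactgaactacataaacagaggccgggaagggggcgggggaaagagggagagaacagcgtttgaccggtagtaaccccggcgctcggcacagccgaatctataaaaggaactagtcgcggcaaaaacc

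In these letters Hmgcs1 holds the sterol regulatory element 137 bases and a CCAAT box 45 bases before the start, Mvd has CCAAT boxes at 60 and 27 bases, and Mvk has 4, at 120, 67, 50 and 14 bases. Mylip has CCAAT boxes at 108 and 67 bases, and Abca1 has the E-box at 147 bases and no CCAAT box in the printed window. A match is a description of the letters and not a measured binding site.

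Against T cells, monocytes/macrophages had higher levels of all uptake and storage genes, of 4 of 5 efflux and liver X receptor genes and of 7 of 15 synthesis enzymes, and lower levels of 2 synthesis enzymes and 2 regulators. With the libraries as replicates (edgeR quasi-likelihood test with a term for each library, adjusted p under 0.05 over 12337 genes), 17 of the 30 genes were higher and 4 lower in monocytes/macrophages, where 31.9% of all genes tested were higher and 29.8% lower; 61.7% were called in either direction. The median log2 difference was 0.77 over the 30 genes and 0.007 over all genes. By role the medians were 0.39 for synthesis, -0.22 for regulation, 1.74 for efflux and liver X receptor genes, 3.05 for storage and oxysterol genes and 2.57 for uptake. Without the anti-PD1 WT library 18 genes were called in place of 21. With library sizes in place of TMM factors, which moved the median of all genes to -0.28 and left 36.7% instead of 51.6% of calls on the higher side, 15 were higher and 6 lower: Hmgcs1 and Mvk were lost, and Srebf1 and Srebf2 were called lower.

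**Figure D1:**
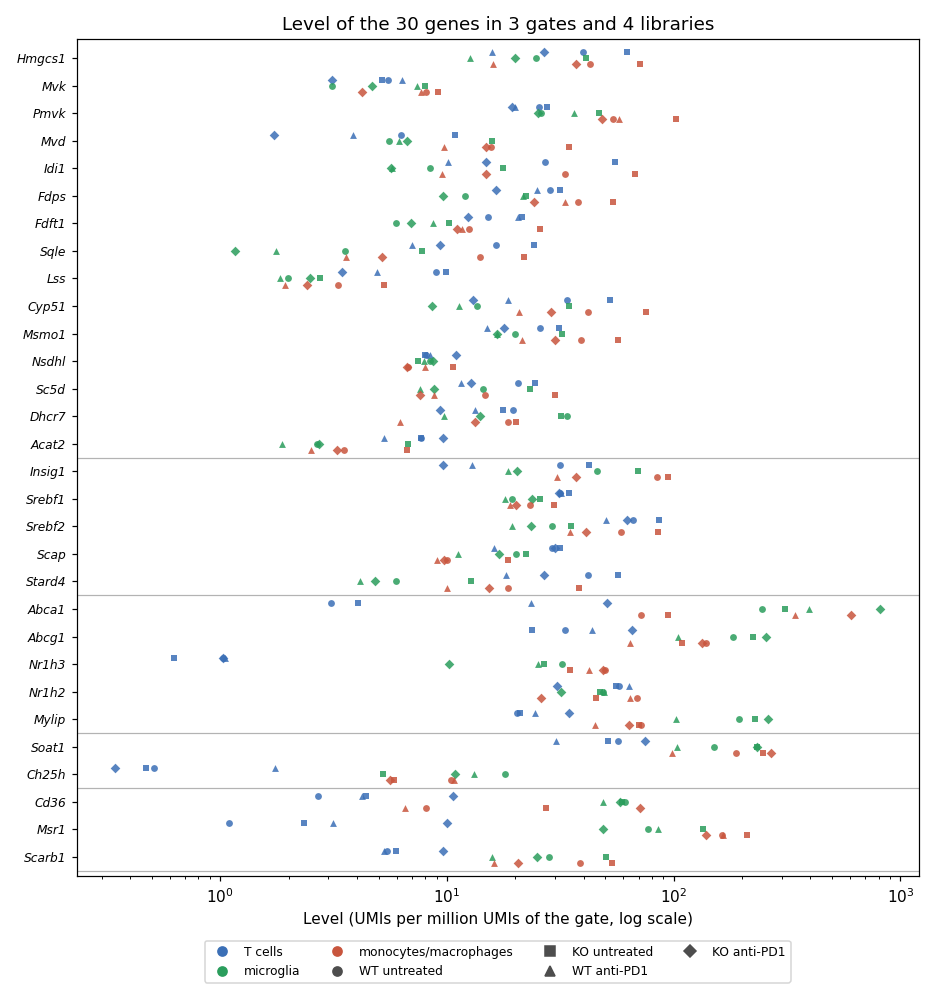
Level of each of the 30 genes (rows, grouped by role) in CPM on a log axis, in T cells, microglia and monocytes/macrophages (colours) of the 4 libraries (shapes), 1 point per library. Nr1h3 and Abca1 show T cells far to the left of both myeloid gates, while Nsdhl shows all 12 points between 6.63 and 11.0 CPM.

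Of the 15 synthesis enzymes, 7 were higher and 2 lower in monocytes/macrophages than in T cells, and 6 were not called. All log2 differences below are monocytes/macrophages minus T cells, with the standard error. Pmvk, a kinase of the mevalonate segment, was at 54.0, 103, 57.1 and 48.5 CPM in monocytes/macrophages and at 25.5, 27.7, 19.9 and 19.3 CPM in T cells. Its lowest monocyte/macrophage value lay above its highest T cell value, and the difference was 1.72 ± 0.18 (edgeR adjusted p = 1.7e-05). Mvd, which decarboxylates mevalonate diphosphate, was at 15.7, 34.3, 9.68 and 14.9 CPM in monocytes/macrophages and at 6.29, 10.8, 3.85 and 1.72 CPM in T cells. Mvd was higher in monocytes/macrophages within each library, by 1.88 ± 0.28 (edgeR adjusted p = 0.00019), although the values of different libraries overlapped. Msmo1, a methylsterol oxidase, was at 38.9, 56.6, 21.4 and 29.9 CPM in monocytes/macrophages and at 25.6, 31.1, 15.0 and 17.9 CPM in T cells. Msmo1 differed by 0.95 ± 0.15 (edgeR adjusted p = 0.00028), again higher in 4 of 4 libraries with overlapping values. Mvk, the first mevalonate kinase, was at 8.04, 9.14, 7.71 and 4.21 CPM in monocytes/macrophages and at 5.49, 5.16, 6.30 and 3.096 CPM in T cells. The difference of 0.77 ± 0.27 (edgeR adjusted p = 0.028) was small and overlapped between libraries. Fdps, Cyp51 and Hmgcs1 were higher by 0.81 ± 0.20, 0.78 ± 0.20 and 0.47 ± 0.15.

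Lanosterol synthase and Acat2 went the other way. Lss, which closes the sterol ring, was at 3.32, 5.26, 1.93 and 2.42 CPM in monocytes/macrophages and at 8.93, 9.85, 4.90 and 3.44 CPM in T cells. Lss was lower in monocytes/macrophages in 4 of 4 libraries, with a difference of -0.86 ± 0.29 (edgeR adjusted p = 0.023), with overlapping values. Acat2, which joins acetyl-CoA units at the head of the route, was lower, with a difference of -0.70 ± 0.25 (edgeR adjusted p = 0.031). Idi1, Fdft1, Sqle, Nsdhl, Sc5d and Dhcr7 were not called, with log2 differences from -0.22 (Sqle) to 0.39 (Idi1). Several of these calls rested on single libraries. Without untreated WT, Lss and Acat2 missed the threshold (edgeR adjusted p = 0.14 and 0.17); without untreated KO, Mvk and Lss did (0.10 and 0.084). Leaving out anti-PD1 WT cost Mvk, Lss and Acat2 (edgeR adjusted p = 0.093, 0.074 and 0.078), and leaving out anti-PD1 KO cost Hmgcs1, Mvk and Acat2 (0.10, 0.051 and 0.14).

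Microglia had lower synthesis levels than monocytes/macrophages and higher levels of 3 liver X receptor targets. Of the 30 genes 4 were higher and 14 lower in microglia, where 16.8% of the 12337 genes tested were higher, 15.6% lower and 32.4% called in all. The median difference was -0.83 over the synthesis enzymes and -0.005 over all genes. Without the anti-PD1 WT library 15 genes were called in place of 18. With library sizes only, 4 were higher and 13 lower, and 63.7% instead of 52.0% of all calls were on the higher side. Of the synthesis enzymes 9 were lower, none higher, and 6 were not called; each of the 9 was lower in 4 of 4 libraries. Sqle, squalene epoxidase and an early rate-limiting step after squalene, was at 3.55, 7.73, 1.77 and 1.16 CPM in microglia and at 14.0, 21.9, 3.57 and 5.19 CPM in monocytes/macrophages. Sqle had a difference of -1.71 ± 0.22 (edgeR adjusted p = 0.00042) between the gates. Idi1, isopentenyl diphosphate isomerase, was at 8.42, 17.7, 5.71 and 5.68 CPM in microglia and at 33.1, 67.6, 9.48 and 14.8 CPM in monocytes/macrophages. Idi1 values overlapped between libraries but were lower in microglia within each, with a difference of -1.56 ± 0.21 (edgeR adjusted p = 0.00054).

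**Figure D2:**
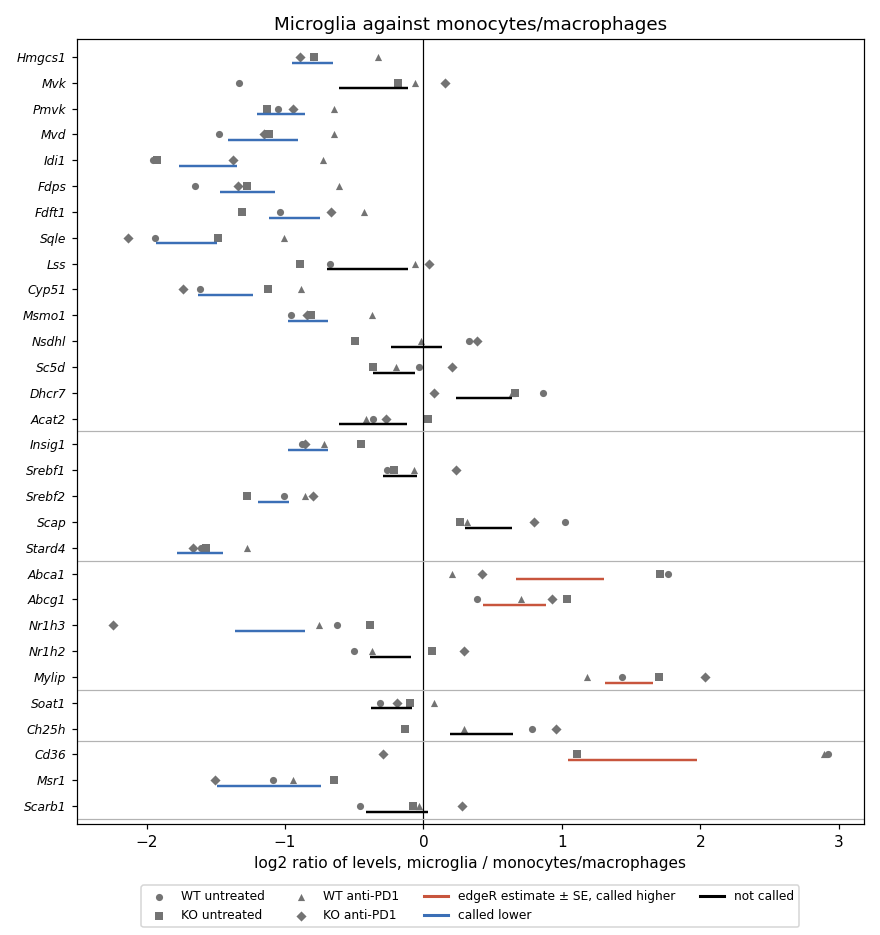
Log2 ratio of the level in microglia to that in monocytes/macrophages for each gene (rows, grouped by role), 1 grey point per library, with the edgeR estimate ± SE as a bar coloured by its call. The 9 called synthesis enzymes have all 4 library points left of 0, and Mylip, Abca1 and Abcg1 have all 4 to the right.

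The other enzymes that were lower in microglia included Hmgcs1 of the mevalonate segment, Fdps and Fdft1 of the farnesyl and squalene steps, and Cyp51 and Msmo1, which act on lanosterol and its products. Cyp51, lanosterol demethylase, was at 13.5, 34.4, 11.2 and 8.57 CPM in microglia and at 41.7, 75.3, 20.8 and 28.6 CPM in monocytes/macrophages. Cyp51 had a difference of -1.43 ± 0.20 (edgeR adjusted p = 0.00061). Fdps, farnesyl diphosphate synthase, was at 11.97, 22.2, 21.6 and 9.56 CPM in microglia and at 37.9, 54.0, 33.1 and 24.3 CPM in monocytes/macrophages. Fdps had a difference of -1.27 ± 0.20 (edgeR adjusted p = 0.0011), and every microglia value lay below every monocyte/macrophage value. Fdft1, squalene synthase, was at 5.99, 10.2, 8.64 and 6.95 CPM in microglia and at 12.5, 25.6, 11.7 and 11.1 CPM in monocytes/macrophages. For Fdft1 every microglia value lay below every monocyte/macrophage value, and the difference was -0.93 ± 0.18 (edgeR adjusted p = 0.0038). Hmgcs1, which makes HMG-CoA, was at 24.6, 41.1, 12.7 and 20.0 CPM in microglia and at 42.9, 71.2, 15.9 and 37.2 CPM in monocytes/macrophages. Hmgcs1 had a difference of -0.80 ± 0.15 (edgeR adjusted p = 0.0028) and overlapped between libraries. Pmvk, Mvd and Msmo1 had differences of -1.03 ± 0.17, -1.16 ± 0.25 and -0.83 ± 0.14. Dhcr7, which reduces the last double bond of a branch of the pathway, was not called, at 0.44 ± 0.20 (edgeR adjusted p = 0.12), although its microglia level was the higher one in 4 of 4 libraries. Mvk, Lss, Nsdhl, Sc5d and Acat2 were not called either.

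Among the regulators, Insig1 stood on the side of the myeloid cells and Scap and Stard4 on the side of T cells. Insig1, which retains SCAP when sterols are plentiful, was at 84.2, 94.7, 30.7 and 36.9 CPM in monocytes/macrophages and at 31.5, 42.2, 12.9 and 9.63 CPM in T cells. Insig1 was higher in 4 of 4 libraries, by 1.68 ± 0.16 (edgeR adjusted p = 6.9e-06), with overlap between libraries. Scap, the SREBP escort, was at 9.95, 18.6, 8.99 and 9.74 CPM in monocytes/macrophages and at 28.9, 31.6, 16.1 and 29.9 CPM in T cells. Scap was lower in monocytes/macrophages in 4 of 4 libraries, with a difference of -0.90 ± 0.17 (edgeR adjusted p = 0.001), and the highest monocyte/macrophage value lay above the lowest T cell value. Stard4, a cytosolic sterol carrier, was at 5.99, 12.7, 4.13 and 4.81 CPM in microglia and at 18.5, 38.1, 10.0 and 15.3 CPM in monocytes/macrophages. Stard4 was lower in microglia than in monocytes/macrophages, with a difference of -1.62 ± 0.17 (edgeR adjusted p = 0.00014). Stard4 was also lower in monocytes/macrophages than in T cells, with a difference of -0.59 ± 0.16 (edgeR adjusted p = 0.0087), a call that missed the threshold without untreated WT (edgeR adjusted p = 0.073), so its level ordered T cells, monocytes/macrophages and microglia. Srebf2, which encodes SREBP-2, was at 29.0, 35.2, 19.4 and 23.5 CPM in microglia and at 58.6, 85.3, 35.0 and 40.9 CPM in monocytes/macrophages. Srebf2 was lower in microglia, with a difference of -1.09 ± 0.11 (edgeR adjusted p = 0.00013), while monocytes/macrophages and T cells were not called apart. Srebf2 in T cells was at 66.0, 85.7, 50.4 and 61.9 CPM, above its microglia level in each library. Microglia and T cells were not tested against each other. Insig1 was lower in microglia than in monocytes/macrophages, with a difference of -0.83 ± 0.15 (edgeR adjusted p = 0.002). Srebf1, which encodes the SREBP form of fatty acid synthesis, lay between 18.1 and 34.4 CPM over the 3 gates and was called in neither contrast.

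Of the 5 efflux and liver X receptor genes 4 were higher in monocytes/macrophages than in T cells. Abca1, the transporter that loads cholesterol onto apolipoprotein acceptors, was at 71.8, 94.7, 343 and 606 CPM in monocytes/macrophages and at 3.07, 4.07, 23.4 and 50.6 CPM in T cells. No T cell value reached any monocyte/macrophage value, and the difference was 4.35 ± 0.37 (edgeR adjusted p = 3.4e-06). In microglia Abca1 was at 244, 309, 395 and 814 CPM, higher than in monocytes/macrophages by 0.98 ± 0.32 (edgeR adjusted p = 0.038). The excess was a log2 ratio of 1.76 and 1.71 in the untreated libraries and 0.20 and 0.43 in the anti-PD1 libraries. After thinning each cell to 1000 UMIs, 21.5, 24.8, 31.1 and 49.4% of microglia, 6.67, 7.30, 26.1 and 38.6% of monocytes/macrophages and 0.527, 0.691, 1.98 and 5.38% of T cells had an Abca1 UMI. Unthinned shares were 72.8, 81.0, 91.4 and 91.6% in microglia, 27.8, 35.0, 74.8 and 80.04% in monocytes/macrophages and 2.47, 3.61, 9.43 and 14.7% in T cells, at median depths of 8291, 10537, 12902.5 and 7093, 7065, 9843, 8170 and 5539.5 and 8532, 8931.5, 4791 and 3426 UMIs per cell. Abca1 in T cells was 4.28%, 4.29%, 6.83% and 8.34% of its monocyte/macrophage level. The myeloid genes Lyz2, C1qa, C1qb, C1qc, Ms4a7 and Ms4a6c, counted in T cells as a measure of RNA from other cells, were at 0.664% to 1.90%, 0.304% to 2.72%, 1.96% to 5.02% and 3.81% to 15.0% of theirs. Abca1 in T cells thus lay above that range in 3 libraries and inside it in anti-PD1 KO; the part of carried-over RNA in these values was not tested.

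The other 4 genes of this role differed in which gate was highest. Nr1h3, LXR-alpha, was at 49.8, 35.0, 42.4 and 48.7 CPM in monocytes/macrophages and at 1.02, 0.626, 1.05 and 1.03 CPM in T cells. Nr1h3 in T cells was 2.06%, 1.79%, 2.48% and 2.12% of the monocyte/macrophage level, on 14, 4, 3 and 3 UMIs, just above the carry-over range in untreated WT, inside it in untreated KO and anti-PD1 WT and below it in anti-PD1 KO, and the difference was 5.92 ± 0.39 (edgeR adjusted p = 7e-07). In microglia Nr1h3 was at 32.1, 26.7, 25.1 and 10.3 CPM, lower than in monocytes/macrophages, with a difference of -1.11 ± 0.25 (edgeR adjusted p = 0.0084). Mylip, the ubiquitin ligase that degrades lipoprotein receptors, was at 72.0, 70.2, 44.9 and 63.2 CPM in monocytes/macrophages and at 20.3, 21.0, 24.5 and 34.4 CPM in T cells. Mylip did not overlap between these gates and differed by 1.64 ± 0.18 (edgeR adjusted p = 2.3e-05). Microglia held the highest Mylip, at 194, 228, 102 and 259 CPM, again with no overlap, and exceeded monocytes/macrophages by 1.49 ± 0.17 (edgeR adjusted p = 0.00025). Abcg1, which moves cholesterol onto lipoprotein particles, was at 139, 109, 64.0 and 133 CPM in monocytes/macrophages and at 33.2, 23.8, 43.4 and 65.4 CPM in T cells. Abcg1 differed by 1.74 ± 0.24 (edgeR adjusted p = 0.00011); the highest T cell value, from the anti-PD1 KO library, lay just above the lowest monocyte/macrophage value. Microglia had 182, 223, 104 and 254 CPM of Abcg1, more than monocytes/macrophages by 0.66 ± 0.23 (edgeR adjusted p = 0.049). Nr1h2, LXR-beta, lay between 26.1 and 69.0 CPM in all 3 gates and was not called in either contrast.

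Storage, oxysterol and uptake genes were all higher in monocytes/macrophages than in T cells. Soat1, which esterifies cholesterol for storage, was at 188, 248, 97.8 and 267 CPM in monocytes/macrophages and at 56.9, 51.5, 30.1 and 74.6 CPM in T cells. Soat1 did not overlap between the gates and differed by 2.17 ± 0.15 (edgeR adjusted p = 1.2e-06), while microglia and monocytes/macrophages were not called apart. Ch25h, which makes an oxysterol that activates liver X receptors and blocks SREBP processing, was at 10.5, 5.82, 10.7 and 5.59 CPM in monocytes/macrophages and at 0.512, 0.469, 1.75 and 0.344 CPM in T cells. Ch25h in T cells rested on 7, 3, 5 and 1 UMIs, so its difference of 3.94 ± 0.35 (edgeR adjusted p = 4.6e-06) is imprecise in size. Msr1, a scavenger receptor for modified lipoproteins, was at 164, 211, 164 and 138 CPM in monocytes/macrophages and at 1.10, 2.35, 3.15 and 9.98 CPM in T cells. Msr1 did not overlap and differed by 5.98 ± 0.51 (edgeR adjusted p = 3.8e-06). Scarb1, the receptor for high-density lipoprotein, was at 38.7, 53.2, 16.2 and 20.5 CPM in monocytes/macrophages and at 5.42, 5.94, 5.25 and 9.63 CPM in T cells. Scarb1 did not overlap and differed by 2.57 ± 0.27 (edgeR adjusted p = 1.5e-05), with no call between the myeloid gates. Cd36, a scavenger receptor for oxidised lipoprotein and fatty acids, was at 8.04, 27.4, 6.55 and 71.2 CPM in monocytes/macrophages and at 2.71, 4.38, 4.20 and 10.7 CPM in T cells. Cd36 was higher in 4 of 4 libraries, by 2.42 ± 0.54 (edgeR adjusted p = 0.0028), but overlapped between libraries: the WT monocytes/macrophages lay below the anti-PD1 KO T cells.

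In microglia Cd36 was at 61.2, 59.1, 48.7 and 58.1 CPM, similar in all 4 libraries, and exceeded monocytes/macrophages by 1.51 ± 0.47 (edgeR adjusted p = 0.032) in 3 of 4 libraries, not in anti-PD1 KO. Msr1 was lower in microglia than in monocytes/macrophages, with a difference of -1.12 ± 0.38 (edgeR adjusted p = 0.044). The myeloid contrast of 4 of these transporters and receptors was fragile. Abca1, Abcg1, Cd36 and Msr1 missed the threshold without untreated WT (edgeR adjusted p = 0.056 to 0.16) and without untreated KO (0.077 to 0.18). Abcg1, Cd36 and Msr1 also missed it without anti-PD1 WT (0.07 to 0.15), and Abcg1 without anti-PD1 KO (edgeR adjusted p = 0.13). All 4 missed it as well with the stricter cell filter, while Mylip and the 9 synthesis enzymes stayed called without each library in turn.

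Set against each other, synthesis and efflux placed the 3 gates in one order in all 4 libraries. The 15 synthesis enzymes summed to 288, 389, 185 and 181 CPM in T cells, 346, 591, 218 and 252 CPM in monocytes/macrophages and 184, 308, 157 and 142 CPM in microglia. Abca1 and Abcg1 summed to 36.3, 27.8, 66.8 and 116 CPM in T cells, 211, 203, 407 and 739.5 CPM in monocytes/macrophages and 426, 532, 499.8 and 1068 CPM in microglia. The ratio of these sums was 7.94, 14.0, 2.77 and 1.56 in T cells, 1.64, 2.91, 0.535 and 0.341 in monocytes/macrophages and 0.432, 0.579, 0.314 and 0.133 in microglia. It is a ratio of UMI counts, which serves to compare gates and not the abundance of the 2 sets of transcripts. On the log2 scale the ratio in T cells exceeded that in monocytes/macrophages by 2.28 ± 0.07 (SD, n = 4 libraries), and the ratio in microglia minus that in monocytes/macrophages was -1.59 ± 0.68 (SD, n = 4). Conventional dendritic cells, gated by Flt3, Zbtb46, Xcr1 and Clec9a, had a higher synthesis sum than T cells, monocytes/macrophages and microglia in each library, 639, 925, 312 and 368 CPM, on 144, 163, 24 and 39 cells. Their Abca1 was 3.94, 1.80, 24.4 and 75.1 CPM and their ratio 6.28, 19.3, 3.56 and 2.80. Pmvk alone held 34.4% and 51.0% of the 64 and 98 synthesis UMIs of dendritic cells in anti-PD1 WT and KO. Its share in monocytes/macrophages of these libraries was 26.2% and 19.2%. In anti-PD1 KO the excess of the dendritic cell sum over that of monocytes/macrophages therefore rested on Pmvk. In T cells, monocytes/macrophages and microglia the ratio was lower in the anti-PD1 than in the untreated libraries of the same genotype. In the untreated pair it was higher in KO in these gates and in dendritic cells. The anti-PD1 dendritic cells, 24 and 39, were under the 50 cells set for comparing libraries. Their ratios rested on 18 and 35 UMIs of Abca1 and Abcg1.

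**Figure D3:**
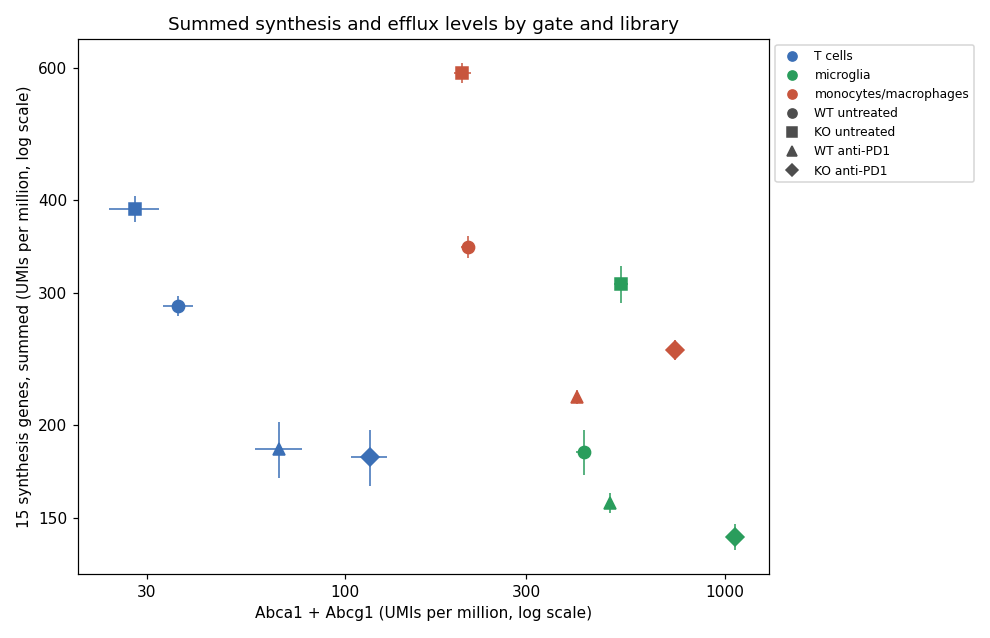
Summed level of the 15 synthesis enzymes against that of Abca1 and Abcg1 (both in CPM, log axes) for 3 gates (colours) in 4 libraries (shapes); bars are 95% Poisson intervals for counting error. T cells lie at the left with efflux sums of 27.8 to 116 CPM, microglia at the lower right, and in each gate the anti-PD1 points lie lower and further right than the untreated points of the same genotype.

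Within the monocyte/macrophage gate, cells with C1q UMIs, a macrophage feature, were set against cells with Ly6c2 UMIs, a monocyte feature. Microglia without a UMI of the microglia markers would fall into this gate, and their part in the contrast was not tested. Abca1, Nr1h3, Ch25h and Cd36 were higher in the C1q sub-gate, and of the 15 synthesis enzymes Idi1 was called, lower. Of the 30 genes 4 were higher in the C1q sub-gate and 1 lower, where 6.18% of 9902 genes were higher, 5.46% lower and 11.6% called in all. Abca1 and Nr1h3 were higher in 4 of 4 libraries, by 1.20 ± 0.23 (edgeR adjusted p = 6.2e-06) and 1.14 ± 0.23 (edgeR adjusted p = 3.5e-05). In anti-PD1 KO the direction was within counting error. Abca1 there was at 536 CPM (interval 343 to 797) on 24 UMIs in the Ly6c2 sub-gate, against 617 CPM in C1q. Nr1h3 had 0 UMIs (interval up to 82.3 CPM) against 50.4 CPM. Ch25h was higher by 1.78 ± 0.37 (edgeR adjusted p = 6.5e-05) and Cd36 by 1.09 ± 0.31 (edgeR adjusted p = 0.0069), while Idi1 had a difference of -0.69 ± 0.24 (edgeR adjusted p = 0.037). The Ly6c2 sub-gate held 557, 56, 635 and 8 cells, so the anti-PD1 KO library added little, and without it Cd36 missed the threshold (edgeR adjusted p = 0.056) and 4 genes were called. Without untreated WT 2 genes were called: Idi1, Ch25h and Cd36 missed the threshold (edgeR adjusted p = 0.24, 0.071 and 0.063). Without untreated KO Idi1 did (0.092), and without anti-PD1 WT 3 genes were called, Idi1 and Cd36 missing it (0.48 and 0.2). No other synthesis enzyme or regulator was called, and their differences ran from -0.47 (Msmo1) to 0.72 (Dhcr7).

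Cycling T cells, those with at least 2 UMIs of the division genes Mki67 and Top2a together, were compared with T cells with none. They had higher levels of 5 synthesis enzymes and Stard4 and lower levels of 3 efflux and liver X receptor genes. Of 27 genes tested, 6 were higher and 3 lower, where 13.4% of 9472 genes were higher, 11.5% lower and 24.8% called in all; Nr1h3, Ch25h and Msr1 were below the count filter. Idi1 differed by 1.23 ± 0.15 (edgeR adjusted p = 6.9e-05) and Fdps by 1.23 ± 0.23 (edgeR adjusted p = 0.0017), each higher in 4 of 4 libraries. Pmvk, Cyp51 and Hmgcs1 were higher by 0.68 ± 0.17, 0.61 ± 0.18 and 0.39 ± 0.13, and Stard4 by 0.62 ± 0.13 (edgeR adjusted p = 0.0036). Abcg1 and Mylip were lower in cycling cells in 4 of 4 libraries, with differences of -0.91 ± 0.14 (edgeR adjusted p = 0.00054) and -0.83 ± 0.17 (edgeR adjusted p = 0.003). Abca1 had a difference of -1.13 ± 0.38 (edgeR adjusted p = 0.046), with untreated WT at 0.05 and anti-PD1 WT at -3.31. Its level in cycling cells rested on 17, 6, 1 and 16 UMIs, so the size of this difference is imprecise. Summed synthesis was 337, 409, 316 and 316 CPM in cycling and 242, 309, 150.4 and 141 CPM in other T cells, higher in cycling cells of each library. Cycling T cells numbered 377, 205, 50 and 58 and had median depths of 13205, 13551, 8155.5 and 7945 UMIs, against 7123.5, 7258, 4485 and 3185 in other T cells. With cells thinned to 1000 UMIs no member was called, where 335 of all genes still were; 3 of the 9 genes kept enough counts to be tested. Without anti-PD1 WT 8 genes were called. Single libraries decided some calls. Without untreated WT, Hmgcs1, Pmvk and Cyp51 missed the threshold (edgeR adjusted p = 0.23, 0.059 and 0.061); without untreated KO, Hmgcs1 and Abca1 did (0.29 and 0.17); without anti-PD1 WT, Abca1 (0.13); and without anti-PD1 KO, Hmgcs1 (0.06).

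**Figure D4:**
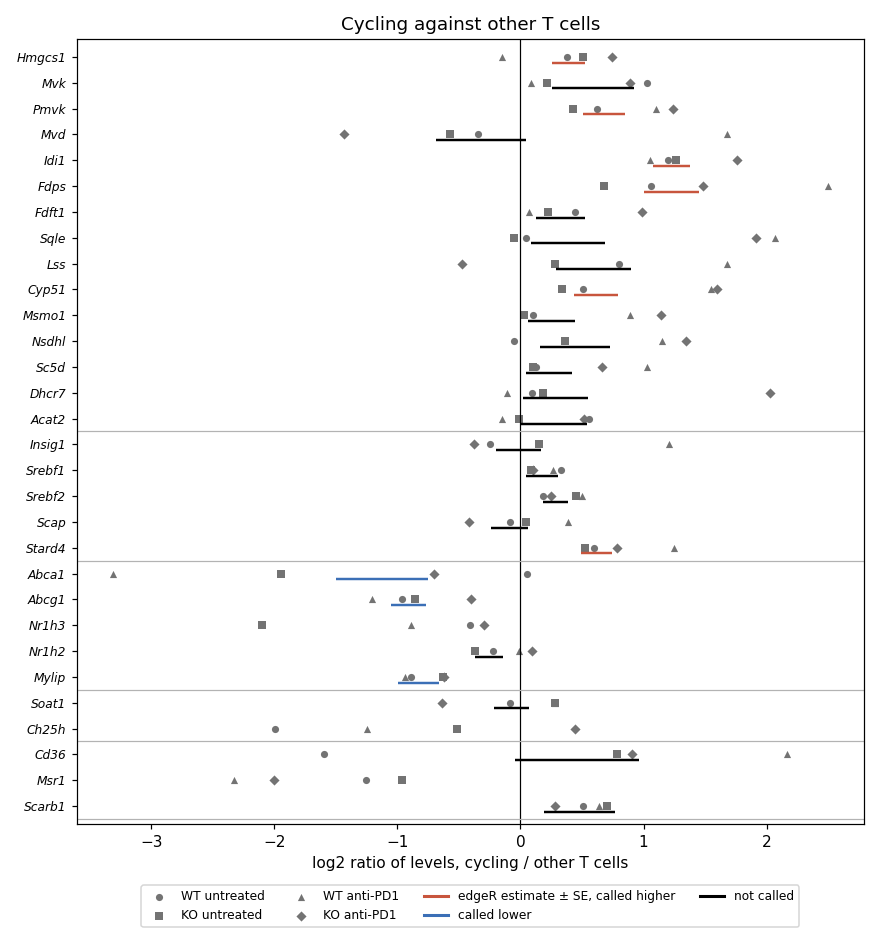
Log2 ratio of the level in cycling T cells to that in other T cells for each gene (rows, grouped by role), 1 grey point per library, with the edgeR estimate ± SE as a bar coloured by its call; genes without a bar were not tested. Idi1 and Fdps have all 4 points right of 0 and Abcg1 and Mylip all 4 left of it.

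In monocytes/macrophages the cycling cells did not separate. None of the 30 genes passed the edgeR threshold or that of DESeq2, 4 had an unadjusted edgeR p under 0.05 (Fdps, Abcg1, Soat1 and Cd36), and 1.29% of 9942 genes were called; the cycling gate held 70, 29, 144 and 78 cells. The difference was 0.40 ± 0.17 (edgeR adjusted p = 0.38) for Fdps and -0.48 ± 0.13 (edgeR adjusted p = 0.086) for Abcg1. Leaving out the untreated KO library, with 29 cycling cells, gave 1 called gene. Whether cycling T cells and cycling monocytes/macrophages differ from each other was not tested. Between CD8 and CD4 T cells 2 of 24 genes were higher in CD8 and 1 lower, where 7.81% of 9076 genes were higher, 9.35% lower and 17.2% called in all. Acat2 was at 9.80, 8.39, 7.40 and 13.5 CPM in CD8 and at 5.75, 5.49, 2.52 and 5.69 CPM in CD4 T cells, higher in CD8 in 4 of 4 libraries with a difference of 1.01 ± 0.28 (edgeR adjusted p = 0.033). Cyp51 had a difference of 0.52 ± 0.15 (edgeR adjusted p = 0.038) and Cd36 of -1.83 ± 0.51 (edgeR adjusted p = 0.034). With library sizes only, Acat2 and Cyp51 were lost, Insig1 was called lower, and the share of all calls on the higher side was 29.3% instead of 45.5%. DESeq2 called Cd36 alone. No gene was called without untreated WT or without untreated KO, 1 (Cyp51) was called without anti-PD1 WT, and 4 without anti-PD1 KO, where Acat2 was lost (edgeR adjusted p = 0.076). Without untreated WT the edgeR adjusted p was 0.13 to 0.2 for these 3 genes, and without untreated KO 0.085 to 0.15.

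Between genotypes, untreated KO cells had more synthesis transcripts than untreated WT cells in every gate compared. Each group is 1 library, so there is no spread between replicates and no test; intervals are 95% and cover counting error only, and a gene was counted as different at 1.5-fold or more with at least 50 UMIs in the pair. Summed synthesis went from 346 to 591 CPM in monocytes/macrophages (WT to KO), a log2 ratio of 0.77 (0.71 to 0.84), from 184 to 308 CPM in microglia, 0.75 (0.62 to 0.87), and from 288 to 389 CPM in T cells, 0.43 (0.36 to 0.50). In the C1q sub-gate it went from 304 to 603 CPM, 0.99 (0.86 to 1.12), and in conventional dendritic cells from 639 to 925 CPM, 0.53 (0.42 to 0.65). Of the synthesis enzymes with enough UMIs, 11 of 15 were higher in KO monocytes/macrophages, where 14.1% of all genes were, 10 of 12 in the C1q sub-gate (12.3%) and 9 of 11 in microglia (7.7%). The count was 7 of 11 in conventional dendritic cells (11.1%), 6 of 11 in the Ly6c2 sub-gate (18.4%) and 4 of 15 in T cells (5.26%), and none of the synthesis enzymes was 1.5-fold lower in these 6 gates. Of all genes 10.8%, 12.1%, 7.97%, 9.43%, 14.5% and 3.59% were lower in the same order. In CD8 T cells 1 of 15 synthesis enzymes was higher and 0 lower (6.82% and 3.56% of all genes), and in CD4 T cells 5 of 10 were higher and 1 lower (7.19% and 6.05%). The lower one was Dhcr7, at 21.6, 9.76, 6.73 and 11.4 CPM, with an untreated KO/WT ratio of -1.11 (-2.02 to -0.36). The median log2 ratio of the synthesis enzymes was 0.73 in monocytes/macrophages and 0.76 in microglia, where that of all genes was 0.06 and 0.02. The count in monocytes/macrophages stayed at 10 or 11 of 15 under the other filters and gates tried, and at 6 of 7 after thinning; in microglia it ran from 6 of 11 (stricter gate) to 8 of 9 (stricter cell filter), and none had enough UMIs after thinning.

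The efflux sum moved differently between gates in the untreated pair: it was 211 to 203 CPM in monocytes/macrophages (WT to KO; log2 ratio -0.05, interval -0.15 to 0.05), 426 to 532 CPM in microglia (log2 ratio 0.32, interval 0.23 to 0.41) and 36.3 to 27.8 CPM in T cells (log2 ratio -0.38, interval -0.64 to -0.13). It was lower in KO in conventional dendritic cells, 102 to 48.0 CPM (log2 ratio -1.08, interval -1.45 to -0.72), and in the Ly6c2 sub-gate, 201 to 105 CPM (log2 ratio -0.93, interval -1.33 to -0.56), and higher in microglia. In the anti-PD1 pair the efflux sum was higher in KO in the 3 gates. Within the T gate its log2 ratio was 1.13 (0.62 to 1.66) in CD4 T cells and 0.23 (-0.13 to 0.60) in CD8 T cells. The CD8 interval includes no difference. The synthesis sum went from 218 to 252 CPM in monocytes/macrophages (log2 ratio 0.21, interval 0.16 to 0.26), from 157 to 142 CPM in microglia (log2 ratio -0.15, interval -0.22 to -0.08) and from 185 to 181 CPM in T cells (log2 ratio -0.04, interval -0.21 to 0.14). The efflux sum went from 407 to 739.5 CPM in monocytes/macrophages (log2 ratio 0.86, interval 0.83 to 0.89), from 499.8 to 1068 CPM in microglia (log2 ratio 1.10, interval 1.06 to 1.13) and from 66.8 to 116 CPM in T cells (log2 ratio 0.79, interval 0.53 to 1.06). In the C1q sub-gate it went from 495 to 753 CPM (log2 ratio 0.61, interval 0.56 to 0.65). This sub-gate held 1639 of 4335 monocytes/macrophages in anti-PD1 WT and 2492 of 2700 in anti-PD1 KO. The part of that shift was not tested. Abca1 in anti-PD1 KO T cells lay inside the carry-over range given above, and the part of carried-over RNA in the T cell sum was not tested. In the anti-PD1 pair 4 synthesis enzymes were 1.5-fold higher and 1 lower of 15 in monocytes/macrophages, where 23% of all genes were higher and 16.4% lower. In microglia 1 was higher and 3 lower of 15 (31.6% and 14.6%), and in T cells 1 and 1 of 10 (22.2% and 16.1%). In microglia the synthesis enzymes that were higher were a smaller share than among all genes, whose median log2 ratio was 0.25. Soat1 was higher in KO in all 3 gates, by 1.45, 1.18 and 1.31 in monocytes/macrophages, microglia and T cells, and Nr1h2 had ratios of -1.29, -0.63 and -1.05. Nr1h3 was also low in anti-PD1 KO microglia, with a ratio of -1.29 (-1.54 to -1.05), while Mylip was high there, 1.35 (1.28 to 1.42).

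**Figure D5:**
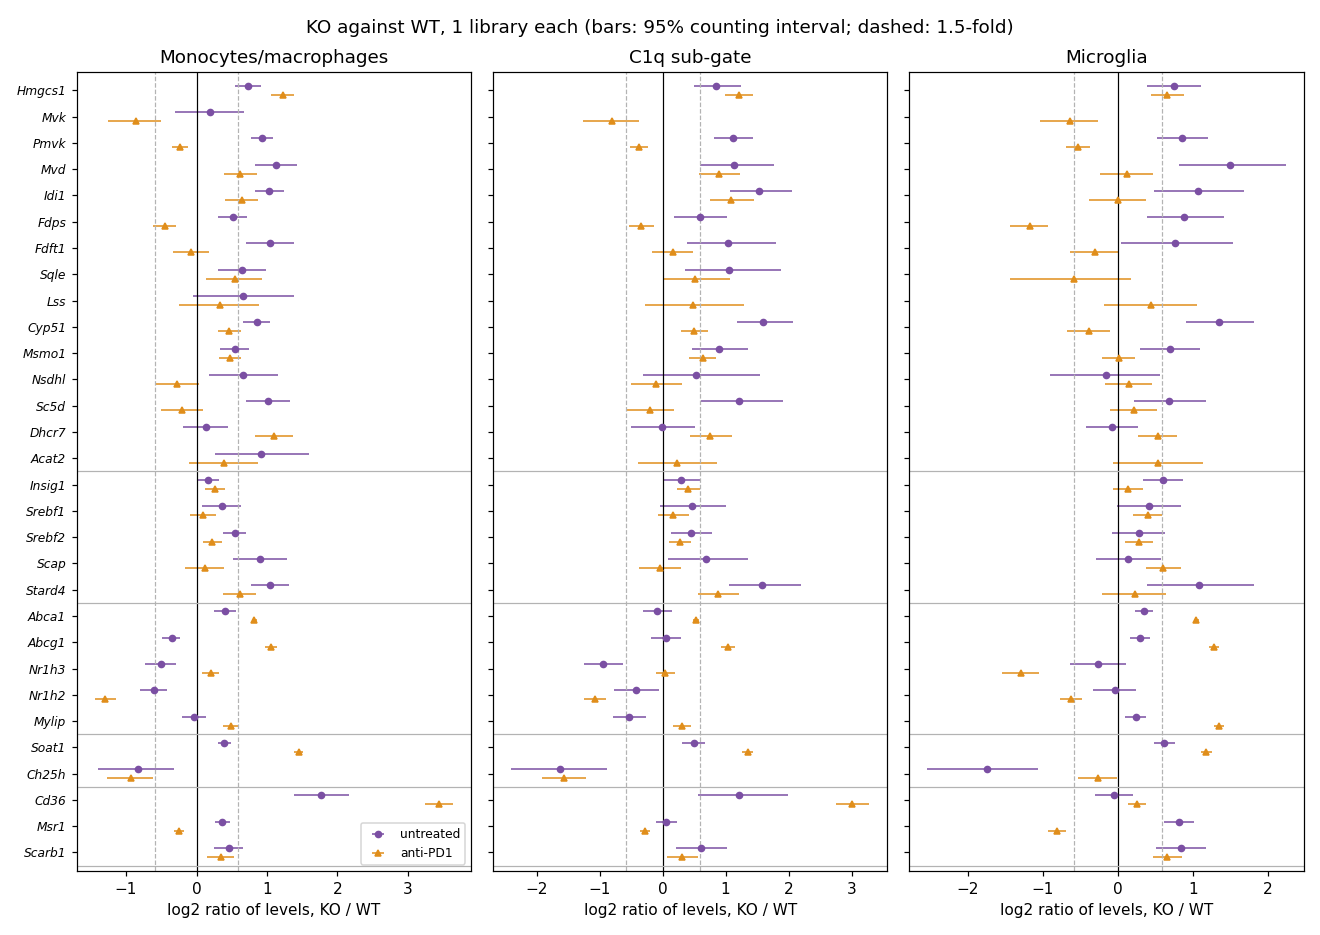
Log2 ratio of the level in KO to that in WT for each gene (rows) in the untreated and anti-PD1 pairs (colours) of 3 gates (panels); bars are 95% counting intervals and dashed lines mark 1.5-fold. The C1q sub-gate is part of the monocyte/macrophage gate. Most synthesis enzymes lie right of the upper line in the untreated pair, and Cd36 lies far right in both pairs of the first 2 panels.

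The genes past 1.5-fold in the same direction in both pairs of a gate are given next. The share of all genes that did so was not counted, so whether the members repeat more often was not tested. In monocytes/macrophages 14.1% and 23% of all genes were 1.5-fold higher in the untreated and anti-PD1 pairs taken singly, and 10.8% and 16.4% lower. Hmgcs1 was the one found in all of the main gates, and the values of the C1q sub-gate share cells with those of monocytes/macrophages. Hmgcs1 in monocytes/macrophages was at 42.9, 71.2, 15.9 and 37.2 CPM, log2 KO/WT ratios of 0.73 (0.54 to 0.92) untreated and 1.22 (1.06 to 1.38) with anti-PD1. Hmgcs1 in microglia was at 24.6, 41.1, 12.7 and 20.0 CPM, log2 KO/WT ratios of 0.74 (0.39 to 1.10) untreated and 0.66 (0.44 to 0.88) with anti-PD1, the latter 0.39 and under 1.5-fold with TMM factors. Hmgcs1 in T cells was at 39.7, 62.1, 15.7 and 26.8 CPM, log2 KO/WT ratios of 0.64 (0.45 to 0.83) untreated and 0.76 (0.22 to 1.33) with anti-PD1. Both KO libraries were above the WT library of their treatment in each of these gates. Mvd in monocytes/macrophages was at 15.7, 34.3, 9.68 and 14.9 CPM, log2 KO/WT ratios of 1.13 (0.84 to 1.43) untreated and 0.62 (0.38 to 0.85) with anti-PD1. Idi1 in monocytes/macrophages was at 33.1, 67.6, 9.48 and 14.8 CPM, log2 KO/WT ratios of 1.03 (0.83 to 1.24) untreated and 0.65 (0.41 to 0.88) with anti-PD1. Stard4 in monocytes/macrophages was at 18.5, 38.1, 10.0 and 15.3 CPM, log2 KO/WT ratios of 1.04 (0.77 to 1.32) untreated and 0.61 (0.38 to 0.84) with anti-PD1, the latter 0.19 after thinning. These 3 genes were lowest in anti-PD1 WT and highest in untreated KO. In the C1q sub-gate the ratios were 0.85 and 1.21 for Hmgcs1, 1.14 and 0.89 for Mvd, 1.53 and 1.09 for Idi1, and 1.58 and 0.88 for Stard4, untreated first. Msmo1 was past 1.5-fold in both pairs in the C1q sub-gate only, at 28.8, 53.6, 19.3 and 29.9 CPM with ratios of 0.89 and 0.63.

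Outside synthesis, Cd36 had the largest ratio of the members that repeated. Cd36 in monocytes/macrophages was at 8.04, 27.4, 6.55 and 71.2 CPM, log2 KO/WT ratios of 1.76 (1.39 to 2.16) untreated and 3.44 (3.25 to 3.64) with anti-PD1. Both KO libraries lay above both WT libraries, and in the C1q sub-gate, at 11.0, 26.0, 9.11 and 73.5 CPM, the ratios were 1.21 and 3.01. In microglia Cd36 did not follow, with ratios of -0.05 and 0.26. Ch25h in monocytes/macrophages was at 10.5, 5.82, 10.7 and 5.59 CPM, log2 KO/WT ratios of -0.84 (-1.40 to -0.32) untreated and -0.93 (-1.27 to -0.61) with anti-PD1, but the untreated ratio was -0.06 when each cell had equal weight. In the C1q sub-gate Ch25h was at 19.9, 6.38, 17.5 and 5.88 CPM with ratios of -1.63 and -1.56; with equal cell weight the first was -0.82. Ch25h is known as an interferon-stimulated gene. Nr1h2 in monocytes/macrophages was at 69.0, 45.3, 63.9 and 26.1 CPM, log2 KO/WT ratios of -0.61 (-0.80 to -0.41) untreated and -1.29 (-1.44 to -1.15) with anti-PD1. Soat1 in microglia was at 151, 232, 103 and 234 CPM, log2 KO/WT ratios of 0.62 (0.48 to 0.76) untreated and 1.18 (1.11 to 1.25) with anti-PD1. Scarb1 in microglia was at 28.2, 50.4, 15.8 and 24.9 CPM, log2 KO/WT ratios of 0.84 (0.51 to 1.17) untreated and 0.66 (0.46 to 0.86) with anti-PD1, the latter 0.39 with TMM factors. For each of these genes the labelled genotype and the library are the same thing, so a difference between mice of a pool, or between library preparations, cannot be told apart from the genotype.

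Between untreated and anti-PD1 libraries of the same genotype, the synthesis sum was lower and the efflux sum higher with anti-PD1 in the 3 gates. The 2 comparisons of KO and WT above use these same 4 libraries. In WT the synthesis sum went from 346 to 218 CPM in monocytes/macrophages (log2 ratio -0.66, interval -0.72 to -0.61), from 288 to 185 CPM in T cells (log2 ratio -0.64, interval -0.77 to -0.50) and from 184 to 157 CPM in microglia (log2 ratio -0.23, interval -0.33 to -0.12), untreated to anti-PD1. In KO it went from 591 to 252 CPM (log2 ratio -1.23, interval -1.29 to -1.17), 389 to 181 CPM (log2 ratio -1.10, interval -1.24 to -0.97) and 308 to 142 CPM (log2 ratio -1.12, interval -1.22 to -1.02) in the same gates. Of the synthesis enzymes 9 of 15 were 1.5-fold lower in WT and 15 of 15 in KO monocytes/macrophages, where 30.1% and 30.2% of all genes were lower. In T cells 8 of 15 (WT) and 11 of 14 (KO) were lower, with 17.7% and 19.2% of all genes. In microglia 4 of 15 (WT) were lower and 2 higher, near the 36.7% and 13.5% of all genes, and 12 of 15 (KO) were lower with 26.7% of all genes. The median log2 ratio of all genes in WT microglia was -0.32, so the synthesis sum there, at -0.23, fell no more than the typical gene. The efflux sum went from 211 to 407 CPM in WT and from 203 to 739.5 CPM in KO monocytes/macrophages, and the rise in counts was that of Abca1: its ratio was 2.26 (2.15 to 2.37) in WT and 2.68 (2.57 to 2.79) in KO, while Abcg1 had -1.12 (-1.21 to -1.02) and 0.30 (0.18 to 0.41). In microglia the Abca1 ratio was 0.70 (0.61 to 0.79) in WT and 1.40 (1.31 to 1.48) in KO. Abcg1 in microglia was lower with anti-PD1 in WT and higher in KO. In the C1q sub-gate the efflux sum went from 230 to 495 CPM in WT and from 227 to 753 CPM in KO. In WT CD4 T cells, a part of the T gate, the efflux sum had a log2 ratio of 0.05 (-0.41 to 0.49). In T cells Abca1 went from 3.07 to 23.4 CPM in WT and from 4.07 to 50.6 CPM in KO. Abcg1 there went from 33.2 to 43.4 CPM and from 23.8 to 65.4 CPM. Abca1 in anti-PD1 KO T cells lay inside the carry-over range given above, and the part of carried-over RNA in this rise was not tested. Untreated and anti-PD1 libraries were also counted with different Cell Ranger versions and differ in the share of barcodes over the mitochondrial limit (21.0% and 24.2% against 0.693% and 3.30%), whose part was not tested.

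Other genes of the same pathways were counted from lists of 10 further synthesis and SREBP genes, 9 liver X receptor targets and 9 lysosomal, ester and uptake genes. Against T cells, monocytes/macrophages were higher for all 8 tested genes of the lysosomal list, among them Lrp1, an endocytic lipoprotein receptor (5.02), Plin2, a lipid droplet coat (3.52), and Npc2, which carries cholesterol out of lysosomes (2.57). Of 8 tested liver X receptor targets 5 were higher (Lpcat3, Pltp, Arl4c, Smpdl3a and Rxra) and Fasn was lower (-1.22). Of 10 further synthesis genes 2 were higher (Tm7sf2 and Acly) and 3 lower (Lbr, Mbtps1 and Ggps1), so the list did not lean to the myeloid side as the uptake genes did. Microglia were lower than monocytes/macrophages for Lbr, a sterol reductase of the nuclear envelope (-0.82), and higher for Mbtps1, the protease that cleaves SREBP (0.42). Of the liver X receptor targets Lpcat3 (1.32) and Rxra (0.46) were higher and Pltp (-0.97) and Smpdl3a (-1.04) lower, so these targets did not move one way. Lipa, the lysosomal acid lipase, was higher (0.50), and Plin2 (-0.68) and Olr1 (-1.15) were lower. Cycling T cells were higher for 3 of 9 further synthesis genes tested, Ebp (0.46), Lbr (0.91) and Tmem97 (1.76), and lower for none. Of the liver X receptor targets they were higher for Scd2 (0.33) and lower for Arl4c (-0.47) and Smpdl3a (-0.67), and of 5 lysosomal genes they were lower for Npc2, Nceh1 and Plin2. In the C1q sub-gate Lipa was higher (1.23) and Lbr, Smpdl3a and Stard3 were lower, and between CD8 and CD4 T cells Smpdl3a was lower in CD8 (-0.49). All these values are log2 differences from edgeR with adjusted p under 0.05. The shares of all genes called higher and lower were 31.9% and 29.8% against T cells, 16.8% and 15.6% for microglia, 6.18% and 5.46% for the C1q sub-gate, 13.4% and 11.5% for cycling T cells and 7.81% and 9.35% for CD8, beside which these counts are to be read. In untreated KO against WT, 5 of 9 measured genes of the further synthesis list were 1.5-fold higher in monocytes/macrophages, where 14.1% of all genes were, and 0 of 9 in T cells, where 5.26% were. In the anti-PD1 pair 6 of 8 further liver X receptor targets were higher in KO monocytes/macrophages and 5 of 8 in KO microglia, where 23.0% and 31.6% of all genes were.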

How the data were processed

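The authors deposited raw UMI counts for each gene in each barcode. Per the file headers these came from Cell Ranger 3.1.0 (untreated) and 7.2.0 (anti-PD1); mm10 and GRCm38 are the builds in the submitters' processing notes. The settings for intronic reads and cell calling are not given in the sources used here. Barcodes with 200 or more genes and a mitochondrial share of 10% or less were gated on raw marker UMIs; cells in no gate or in several were left out, and no doublet caller was run. Sub-gates used at least 3 UMIs of C1qa, C1qb and C1qc together, or at least 2 of Ly6c2. Counts were summed per library and gate (Python 3.11.15, pandas 2.3.3). Gate contrasts were tested with edgeR 4.0.16 in R 4.3.3 (TMM, filterByExpr, quasi-likelihood test, a term per library, Benjamini-Hochberg over all genes tested, adjusted p under 0.05); the standard error is the log2 difference over the square root of F. Libraries are 1 per group of pooled mice, so p-values measure the spread between these 4 libraries, and in them the gates come from the same cells and preparation.

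Library pairs have log2 ratios of CPM with 0.5 counts added and exact conditional binomial 95% intervals; a gate was compared only where both libraries held 50 cells or more. Values shown in every library are those of genes called in a contrast, in the contrast of their largest difference, and of genes past 1.5-fold in both KO/WT pairs. A difference from the edgeR fit is scaled by TMM, a CPM by the gate total. On simulated counts, 44% to 70% of 2-fold and 94% to 100% of 4-fold changes were recovered over the 6 contrasts, with 3.43% to 6.76% false calls. The simulation gave all genes the same dispersion, had no library effect and changed only well-counted genes. These rates therefore describe the simulated setting and not the share of false calls in the contrasts above. Alternatives were DESeq2 1.42.0, other scalings, count and cell filters, gates, cell weights, and leaving out libraries. The members and lists were chosen with earlier results of these data known. Promoters came from RefSeq on GRCm38.p6; some genes of the pathway are not reported here.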

Additional observations from a re-analysis of the deposited data

Results flagged for a closer look

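For 3 genes the KO/WT ratio was past 1.5-fold in opposite directions in the untreated and anti-PD1 pairs of a gate. The share of all genes that did so was not counted, so whether the members reverse more often was not tested. In microglia 7.7% and 31.6% of all genes were 1.5-fold higher in the untreated and anti-PD1 pairs taken singly, and 7.97% and 14.6% lower. Each pair is 1 library against 1, so whether the pairs differ was not tested, and the anti-PD1 WT library stands apart from the other 3 in its T cell receptor counts. Fdps in microglia was at 11.97, 22.2, 21.6 and 9.56 CPM, with log2 ratios of 0.89 untreated and -1.18 with anti-PD1, 2.06 apart. Msr1 in microglia was at 77.2, 135, 85.5 and 48.7 CPM, with ratios of 0.81 and -0.81, 1.62 apart. Abcg1 in CD4 T cells was at 42.5, 25.6, 30.3 and 58.3 CPM, with ratios of -0.72 and 0.94, a difference of -1.66 (untreated minus anti-PD1), on 416, 150, 198 and 146 cells.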

How the results depend on the processing

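No paired analysis was possible because each group is 1 library and the labels number no replicates across groups that share a source; the term per library in the gate contrasts is the block that the design allows. Of 768 gene values recomputed for the gate contrasts, 645 kept their direction and side of the threshold, 123 fell under it and 0 changed sign; of 399 for the library pairs, 370 stayed within the counting interval and 29 did not. Calls kept in every alternative were 14 of 21 (monocytes/macrophages against T cells), 5 of 18 (microglia against monocytes/macrophages) and 0 of 5, 0 of 9 and 0 of 3 (C1q, cycling T and CD8); the alternative without the library term ended all of the others. Without that term the members called were 5 in place of 18 for microglia, 0 for 5 in C1q, 0 for 9 in cycling T and 0 for 3 in CD8, and of all genes 4908 for 7611 (monocytes/macrophages against T cells), 936 for 3998 (microglia), 9 for 1153 (C1q), 350 for 2352 (cycling T), 2 for 128 (cycling monocytes/macrophages) and 256 for 1558 (CD8). With cells thinned to 1000 UMIs, which leaves fewer counts, all genes called were 4449, 2270, 230, 335, 18 and 611 in the same order, and members 2 (C1q), 0 (cycling T) and 0 (CD8). DESeq2 gave 562 genes and 3 members for C1q, 1491 genes for cycling T and 1 member for CD8. For cycling monocytes/macrophages no count filter gave 408 genes and 1 member, and a minimum of 50 UMIs 261 and 1; for CD8 no filter gave 2352 genes, and leaving out the top 5% of cells by UMIs 1 member. Leaving out 1 library gave 18 to 19 members and 6556 to 7008 genes (monocytes/macrophages against T cells), 14 to 18 and 2477 to 3204 (microglia), 2 to 4 and 418 to 939 (C1q), 6 to 8 and 1402 to 2178 (cycling T), 0 to 1 and 55 to 252 (cycling monocytes/macrophages) and 0 to 4 and 983 to 1471 (CD8). Gene and gate values past 1.5-fold were 83, 52, 96 and 114 for KO/WT untreated, KO/WT anti-PD1 and anti-PD1/untreated in WT and KO. The gates overlap and are not the same in all comparisons, so these counts are not to be set against each other. Thinning gave 18 for the first, 38 for the third and 42 for the last. A minimum of 10 UMIs or none gave 80 and 85 for the second. The log2 excess of the synthesis to efflux ratio in T cells over monocytes/macrophages was 2.28, and 1.96 after thinning, 1.83 with equal cell weight and 2.01 without the top 5% of cells. Depth limits the T cells of the anti-PD1 libraries, where 10 of 15 synthesis enzymes had enough UMIs.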
